A study of Mus musculus with 6 samples.

Results

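The homologous recombination and Fanconi anemia genes are a set of 36 genes that repair broken or crosslinked DNA, named one by one by their symbols. A member was taken as the locus whose gene name holds its symbol, and all 36 were found among the 53060 genes or merged loci of the table. All 36 also passed the filter on low counts, which left 19073 genes for testing. The RNA came from neural progenitor cells (NPCs), stem-like cells of the embryonic brain, from the ganglionic eminences of e13.5 mouse fetuses. There were 3 libraries from *Armc5* knockout (KO) NPCs and 3 from wild-type (WT) NPCs. All 6 cultures were neurospheres kept in epidermal growth factor (20 ng/ml) and taken at passage 2. The KO is a loss of *Armc5* in both alleles of the whole animal, so no promoter or Cre restricts it. The background is given as 129 sv X CD1 in the sample labels and as an F1 cross of CD1 and C57BL/6 in the methods. How many fetuses went into a culture was not given in the sources used here. The comparison asks how the RNA of these repair genes differs between KO and WT NPCs.

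Homologous recombination copies the sequence lost at a double-strand break from the sister chromatid, and is therefore used mainly in S phase and G2. The ends of the break are first trimmed to single strands, BRCA1 and BRCA2 with their partners coat these strands with a protein filament that finds the matching sequence, and nucleases or a helicase complex then part the joined chromatids. The Fanconi anemia pathway, named for the human disease of its mutations, unhooks crosslinks between the strands of DNA and hands the break to the same machinery. Neural progenitors divide fast, and defects in this machinery are known to cause small brains in mice and in people.

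Most members were low together in 1 library, KO NPC 3. For that reason promoters are shown of the 3 that differed most there among single-gene loci with 1 promoter window. Beside them are those of the 2 such loci that differed least and of *Slx1b*. A promoter window was present for 27 of the 36 members and a member with several windows was passed over. *Exo1* and *Fancd2*, which had no window, and *Rad54l*, which had 2, are therefore missing despite their large differences. Each line is the 250 bases before the start site in RefSeq, 5′ to 3′, on build GRCm38.p6. Capitals mark matches, on either strand, to words that in other promoters are known for cell cycle control. The words are the E2F-type TTTCCCGC, TTTGGCGC, TTTCGCGC and TTTGCCGC, the cell cycle homology words TTTGAA and TTCGAA, and CCAAT, which reads ATTGG on the other strand.
Brip1 promoter, chr11:86201194-86201443, minus strand: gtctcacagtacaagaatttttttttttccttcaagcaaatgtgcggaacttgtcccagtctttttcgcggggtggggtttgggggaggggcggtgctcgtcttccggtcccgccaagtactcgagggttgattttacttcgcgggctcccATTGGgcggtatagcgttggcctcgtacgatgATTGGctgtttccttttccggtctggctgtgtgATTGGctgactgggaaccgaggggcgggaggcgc
Bard1 promoter, chr1:71102973-71103222, minus strand: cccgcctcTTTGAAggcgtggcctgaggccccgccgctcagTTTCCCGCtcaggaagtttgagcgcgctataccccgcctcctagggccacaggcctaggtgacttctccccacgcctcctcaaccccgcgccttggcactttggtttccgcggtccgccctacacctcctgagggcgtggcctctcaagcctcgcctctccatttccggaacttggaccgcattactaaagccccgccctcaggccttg
Fanca promoter, chr8:123318577-123318826, minus strand: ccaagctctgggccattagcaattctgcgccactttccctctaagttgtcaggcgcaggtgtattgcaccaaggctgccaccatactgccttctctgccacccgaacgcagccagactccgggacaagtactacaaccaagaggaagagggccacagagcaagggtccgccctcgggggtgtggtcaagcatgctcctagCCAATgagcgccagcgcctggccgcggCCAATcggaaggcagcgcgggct
Mus81 promoter, chr19:5488380-5488629, minus strand: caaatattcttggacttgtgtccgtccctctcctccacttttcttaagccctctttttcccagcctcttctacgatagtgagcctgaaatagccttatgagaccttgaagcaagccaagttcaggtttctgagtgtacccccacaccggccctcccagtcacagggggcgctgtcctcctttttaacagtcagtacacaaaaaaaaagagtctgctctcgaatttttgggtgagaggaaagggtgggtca
Fancg promoter, chr4:43010302-43010551, minus strand: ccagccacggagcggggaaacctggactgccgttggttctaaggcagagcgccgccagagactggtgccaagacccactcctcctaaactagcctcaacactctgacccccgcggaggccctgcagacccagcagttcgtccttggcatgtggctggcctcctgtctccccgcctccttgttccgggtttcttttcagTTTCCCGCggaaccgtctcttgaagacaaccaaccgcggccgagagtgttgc
Slx1b promoter, chr7:126695784-126696033, minus strand: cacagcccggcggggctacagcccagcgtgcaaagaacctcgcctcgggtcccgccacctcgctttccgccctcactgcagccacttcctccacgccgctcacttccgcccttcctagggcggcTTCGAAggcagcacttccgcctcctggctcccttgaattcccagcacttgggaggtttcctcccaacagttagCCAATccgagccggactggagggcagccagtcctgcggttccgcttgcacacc
No capitals stand in the *Mus81* window. An E2F-type word lies in the windows of *Bard1* and *Fancg*, the first a gene with one of the largest differences in KO NPC 3 and the other with the smallest. Over the 27 members with a window, 3 held an E2F-type word (11.1%), against 2.16% of 27025 genes with a window. A cell cycle homology word was in 2 members (7.41%), against 19.6% of all genes, and CCAAT was in 16 members (59.3%), against 37.5% of all genes. The windows of the members also held more G and C, with a median of 58.8%, against 52.4% over all genes. Split by their level in KO NPC 3, CCAAT was in 8 of 15 members below 0.5 times the lowest other library there and in 8 of the other 12 members. These are matches of letters, given as a description.

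The libraries differ, and this bears on every result below. Named loci held 52995791 to 85170379 counts in the KO libraries and 66018919 to 73445736 in the WT libraries, and the members held between 35940 counts in KO NPC 3 and 108459 in KO NPC 1. The smallest count of a member in a library was 81. *Armc5* itself was at 1.01, 1.64 and 0.730 CPM (counts scaled to the size of the library) in KO NPC 1, 2 and 3, against 31.2, 29.5 and 26.2 CPM in WT NPC 1, 2 and 3, so the genotypes did not overlap. The other context genes with an unadjusted p under 0.05 in edgeR's quasi-likelihood test were *9130023H24Rik* and *Tgfb1i1*, both neighbors of *Armc5*. On GRCm38 chromosome 7, *Armc5* lies from 128237342 to 128245100. *9130023H24Rik* overlaps it, from 128234458 to 128238031, and *Tgfb1i1* follows, from 128246775 to 128255815. *9130023H24Rik* was at no more than 0.302 CPM in the KO libraries and at least 14.9 CPM in the WT libraries. *Tgfb1i1* was at no more than 0.879 CPM in the KO libraries and at least 12.3 CPM in the WT libraries. KO NPC 3 stands apart. It had the lowest total and the largest share of counts at loci that name no gene, 4.89% against 1.31% to 1.72% in the other 5 libraries. The proliferation gene *Mki67* was at 31.1 CPM there, while the other 5 libraries had 764 to 1011 CPM. The astrocyte gene *Gfap* reached 276 CPM there and 47.9 CPM in WT NPC 3, and did not exceed 1.54 CPM in the remaining 4. Fold changes between the genotypes are therefore given with and without KO NPC 3. In bulk RNA, fewer cells that express a gene and less RNA per cell cannot be told apart.

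Between the genotypes, none of the 36 members differed past an adjusted p under 0.05. The test was the quasi-likelihood test of edgeR over all 19073 genes, of which 0 passed, or 0%. At an unadjusted p under 0.05, 1 member, *Slx1b*, was higher in KO NPCs and 0 were lower, beside 0.949% of all genes higher and 0.666% lower. *Slx1b* is a gene that the paper already names as changed in these same libraries, so its p is not independent support. The other tools called none of the members either, with 0 of 36 by edgeR's likelihood ratio test and 0 of 36 by DESeq2. Over all genes these tools called 0.0891% and 0.184%. Of the members, 32 had a log2 fold change, KO against WT, below 0 and 4 above 0, with a median of -0.25, where all genes tested had -0.01. With the replicate number as a block, which compares the KO and WT libraries that share a number, 0 members passed and the median of the members was -0.47. KO NPC 3 sets this direction. Without it, 24 members were above 0 and 12 below, the median was 0.07, and all 36 fold changes lay between -0.50 and 0.47. At an unadjusted p under 0.05 in edgeR's quasi-likelihood test, 3 members were then higher in KO NPCs and 0 lower, beside 1.07% of all genes higher and 1.7% lower. These were *Slx1b* (0.47), *Brip1* (0.30) and *Nbn* (0.25 on the log2 scale), and again 0 passed after adjustment. Without both libraries numbered 3, that test left *Slx1b* alone, beside 219 of 18936 genes higher and 312 lower. Without KO NPC 3, edgeR's likelihood ratio test had 0 members at that unadjusted p. DESeq2 then had 5 members higher and 1 lower, beside 304 of 19631 genes higher and 492 lower. The pairs of libraries that share a number tell the same in another way. The KO library was the higher one of its pair for 30 of 36 members in pair 1, for 18 in pair 2 and for 2 in pair 3, or 83.3%, 50% and 5.56% of the members, beside 50.5%, 50.6% and 48.7% of all genes.

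**Figure D1:**
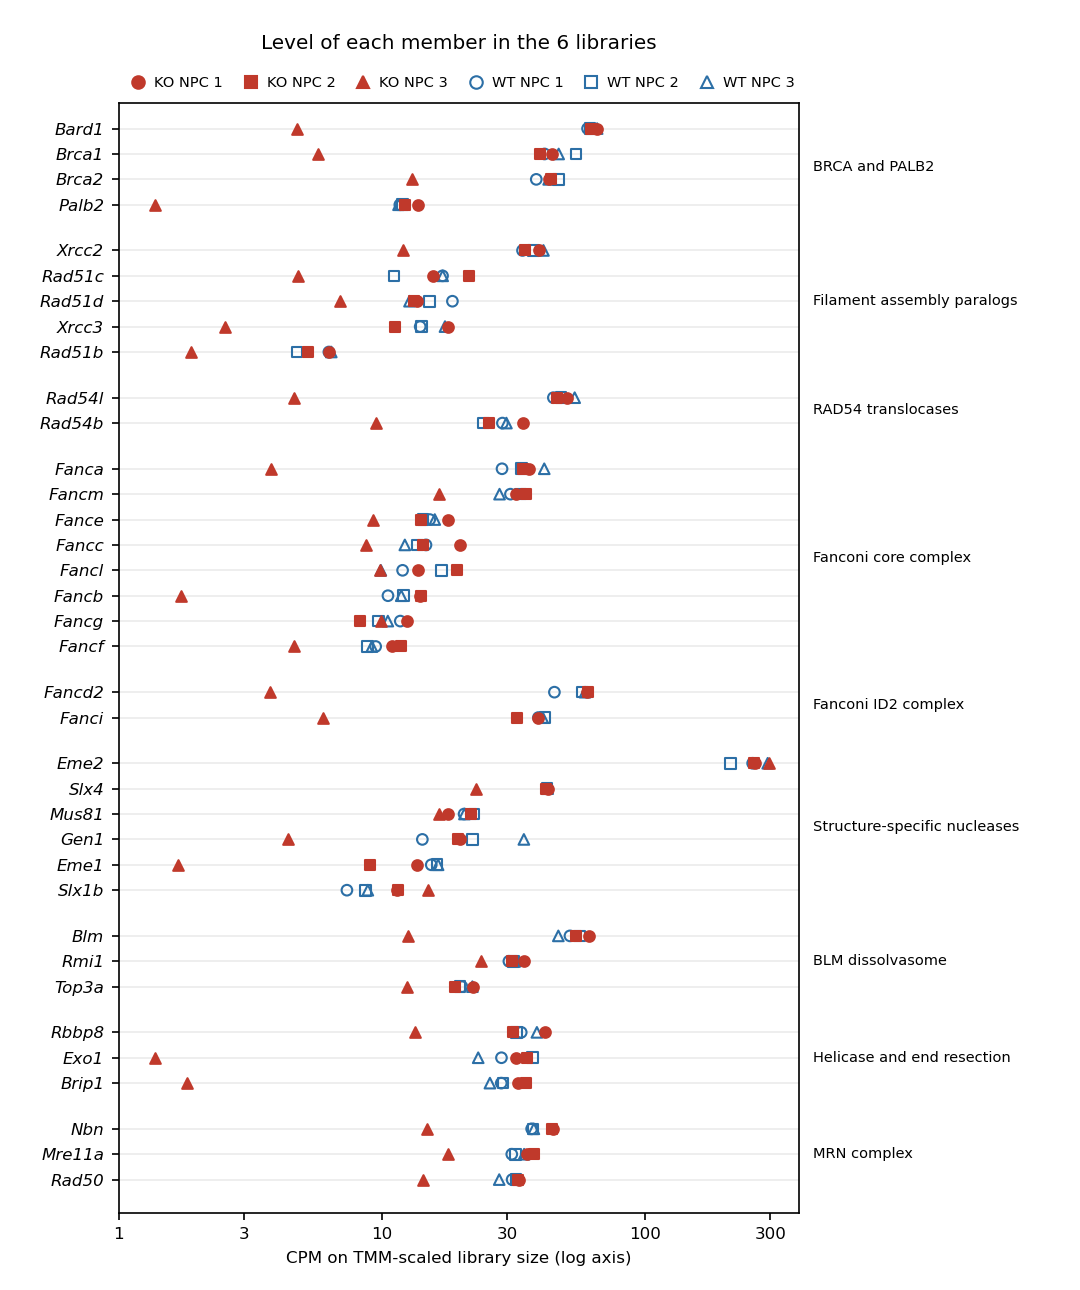
Level of each of the 36 members in CPM (log axis) in the 3 KO libraries (filled) and the 3 WT libraries (open), grouped by role. The filled triangle, KO NPC 3, is the lowest point of 33 members, while the other 5 libraries lie close to each other.

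Per kilobase of locus, the level of the members in WT NPCs spanned about one order of magnitude, from 1.52 CPM per kilobase for *Rad51b*, 1.60 for *Palb2* and 1.62 for *Fancc* to 11.1 for *Bard1* and 14.8 for *Nbn*. These are means of 3 WT libraries, and lengths are those of the assembled loci. In GENCODE, 20 of the 36 members share exon bases with a gene on the opposite strand. The share of exon bases under 1 such gene is 10% or more in 8 of them. It is 28.2% in *Eme2* (*Spsb3*), 16.4% in *Fancc* (*Gm16133*), 16% in *Fanci* (*Polg*), 15.4% in *Rad54l* (*Lrrc41*), 15% in *Fancf* (*Gas2*), 13.7% in *Fancl* (*Vrk2*), 10.5% in *Fanca* (*Zfp276*) and 10.2% in *Slx1b* (*Bola2*). The spread of the members within the 5 libraries other than KO NPC 3 is given as a description, without a share over all genes. The highest of the 5 was less than 2 times the lowest for 35 of 36 members and less than 1.5 times for 27. *Slx4*, the scaffold that holds several junction nucleases, varied least, from 42.2 to 43.0 CPM. *Gen1*, which encodes a nuclease that cuts Holliday junctions, varied most, from 14.3 CPM in WT NPC 1 to 34.7 CPM in WT NPC 3.

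KO NPC 3 was the lowest of the 6 libraries for 33 of the 36 members, beside 36.7% of all genes tested. It lay below 0.5 times the lowest other library for 21 members (58.3%), beside 8.77% of all genes. These counts were chosen after the values were seen, so they describe this library. No other library lay that far below the rest for any member. Relative to the median of the other 5 libraries, the log2 CPM of the members in KO NPC 3 differed by a median of -1.62, against -0.01 over all genes. It ranged from -4.53 for *Exo1* to 0.75 for *Slx1b*. The values by role are given next as a description, since the roles hold 2 to 8 members each and no test compared them. The part of the low cell cycle genes in KO NPC 3 in these values was not tested.

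The BRCA group was low in KO NPC 3 throughout. *Bard1*, the partner with which BRCA1 forms a ubiquitin ligase, was at 65.9, 62.5 and 4.77 CPM in KO NPC 1, 2 and 3, against 60.6, 61.9 and 65.9 CPM in WT NPC 1, 2 and 3. KO NPC 1 and 2 lie within or next to the WT range, and KO NPC 3 lies far below it. For *Bard1* the log2 fold change was -0.50 (SE 0.82, adjusted p = 0.983 in the quasi-likelihood test of edgeR), and 0.03 without KO NPC 3. *Brca1* had 5.70 CPM in KO NPC 3, against 39.9 to 54.7 CPM elsewhere. *Palb2*, which bridges BRCA1 and BRCA2, had 1.37 CPM there, against 11.6 to 13.7 CPM elsewhere. *Brca2*, which works on single-stranded DNA, differed less, at 13.0 CPM against 38.7 to 46.9 CPM in the other 5.

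The paralogs that help assemble and hold the recombination filament were less uniform. *Xrcc2* was at 39.5, 35.1 and 12.04 CPM in KO NPC 1, 2 and 3, against 34.3, 37.8 and 41.2 CPM in WT NPC 1, 2 and 3. Apart from KO NPC 3, its libraries overlap between the genotypes. Its log2 fold change was -0.39 (SE 0.43, adjusted p = 0.983 by the quasi-likelihood test of edgeR), and -0.02 without KO NPC 3. *Xrcc3* had the largest difference of the 5 paralogs in KO NPC 3, at 2.53 CPM, against 11.3 to 17.8 CPM in the other 5 libraries. *Rad51c* had 4.82 CPM in KO NPC 3, against 11.1 to 21.5 CPM elsewhere, and *Rad51b* had 1.88 CPM there, against 4.76 to 6.42 CPM elsewhere. *Rad51d* differed least, at 6.94 CPM against 12.7 to 18.6 CPM. The RAD54 translocases slide along DNA during recombination. *Rad54l* was at 50.4, 46.4 and 4.65 CPM in KO NPC 1, 2 and 3, against 44.9, 48.1 and 54.1 CPM in WT NPC 1, 2 and 3. KO NPC 3 is again the one low library. For *Rad54l* the log2 fold change was -0.54 (SE 0.76, adjusted p = 0.983 in edgeR), and -0.02 without KO NPC 3. *Rad54b*, whose locus also names *Fsbp*, had 9.50 CPM in KO NPC 3, against 24.4 to 34.3 CPM elsewhere.

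The Fanconi core complex, a ubiquitin ligase of many subunits, split within itself. *Fanca* was at 36.4, 34.5 and 3.78 CPM in KO NPC 1, 2 and 3, against 28.7, 33.9 and 41.5 CPM in WT NPC 1, 2 and 3. The first 2 KO libraries fall inside the WT range. Its log2 fold change was -0.48 (SE 0.74, adjusted p = 0.983 in the edgeR fit), and 0.03 without KO NPC 3. Beside *Fanca*, only *Fancb* of the 8 core members was below 0.5 times the lowest other library in KO NPC 3, at 1.73 CPM against 10.6 to 14.1 CPM. *Fancg* was at 9.89 CPM in KO NPC 3, inside the range of 8.28 to 12.5 CPM of the other 5 libraries. *Fancl*, which encodes the subunit with the ligase activity, had 9.84 CPM there, just below the range of 9.91 to 19.3 CPM of the other 5 libraries. *Fancc*, *Fance*, *Fancf* and *Fancm*, the last a translocase that recognizes stalled forks, were at 8.72, 9.30, 4.65 and 16.5 CPM in KO NPC 3. Each was 0.49 to 0.61 times the median of the other 5 libraries. *Fancc* and *Fancl* had a log2 fold change above 0 in the whole comparison, and 7 of the 8 core genes did so without KO NPC 3, with a median of 0.21.

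The core complex ubiquitinates the pair FANCD2 and FANCI, the ID2 clamp that closes on DNA. *Fancd2* was at 60.2, 60.7 and 3.77 CPM in KO NPC 1, 2 and 3, against 45.3, 58.1 and 59.3 CPM in WT NPC 1, 2 and 3. KO NPC 1 and 2 are the highest of the 6 libraries and KO NPC 3 is the lowest. The log2 fold change was -0.38 (SE 0.87, adjusted p = 0.983 in the quasi-likelihood test of edgeR), and 0.16 without KO NPC 3. *Fanci* was at 39.36, 32.7 and 5.97 CPM in KO NPC 1, 2 and 3, against 39.40, 41.7 and 40.9 CPM in WT NPC 1, 2 and 3. All 3 KO libraries were thus below all 3 WT libraries, though KO NPC 1 and WT NPC 1 were nearly equal. Its log2 fold change was -0.64 (SE 0.62, adjusted p = 0.983 in edgeR), and -0.17 without KO NPC 3. On GRCm38, *Fancd2* lies on chromosome 6 from 113531682 to 113597017 and *Fanci* on chromosome 7 from 79391929 to 79450264.

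**Figure D2:**
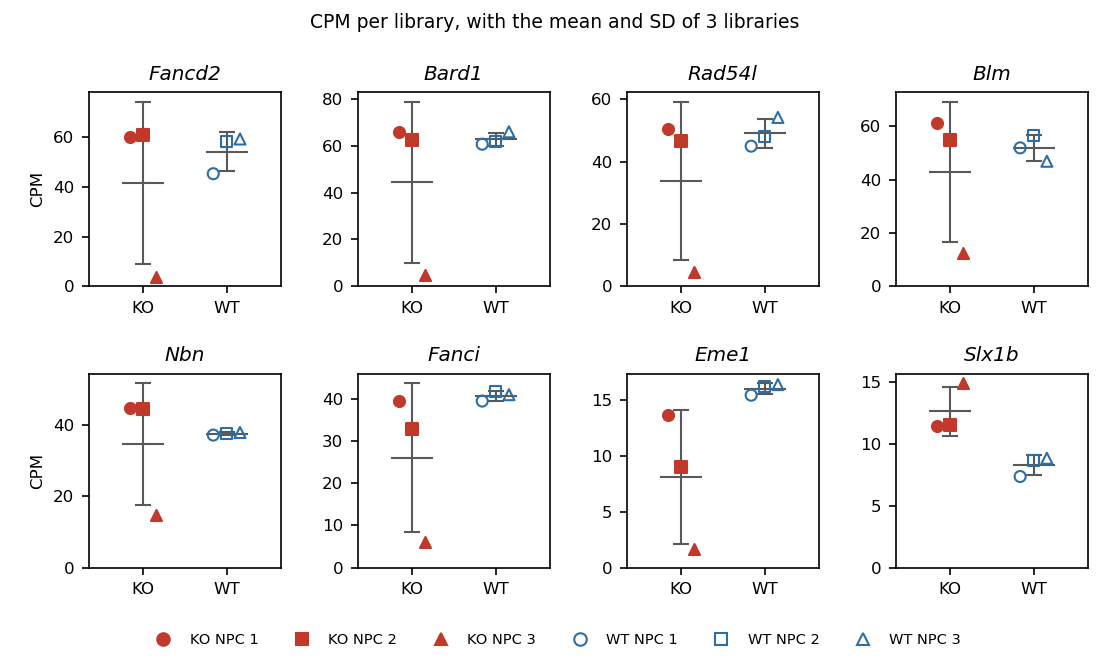
CPM of 8 members in each library on linear axes from 0, KO left of WT, with the mean and SD of 3 libraries as a bar. KO NPC 3 (filled triangle) is the lowest library of 7 of them and the highest of *Slx1b*.

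Structure-specific nucleases, which cut branched DNA, held both the gene that was higher in every KO library and the one with the most negative fold change. *Slx1b*, which encodes the catalytic subunit of the nuclease that works on the SLX4 scaffold, was at 11.4, 11.5 and 14.95 CPM in KO NPC 1, 2 and 3. It was at 7.37, 8.68 and 8.85 CPM in WT NPC 1, 2 and 3. Every KO library was above every WT library, which held for 1 of 36 members, beside 2.74% of all genes, so about the share of all genes. The log2 fold change was 0.61 (SE 0.21, unadjusted p = 0.0269, adjusted p = 0.983 in the quasi-likelihood test of edgeR), and 0.47 without KO NPC 3. It thus did not pass the adjusted threshold. Scaled by the *Rn7sk* count of each library, which shifts the median of all genes to -0.26, it was 0.34, and the KO and WT libraries overlapped. For *Slx1b* the paper reports both a higher and a lower transcript in these same libraries, and counts per locus merge them. The counts of *Slx1b* are also uncertain. Its locus, on GRCm38 chromosome 7 from 126687459 to 126695784 on the minus strand, also names the pseudogene *Gm6939*. In GENCODE, 10.2% of its exon bases lie under exons of *Bola2* on the opposite strand, and whether reads were assigned by strand was not given in the sources used here. *Bola2* was at 17.8, 18.25 and 8.975 CPM in the KO libraries and at 15.3, 17.1 and 16.7 CPM in the WT libraries. As with *Slx1b*, the KO library was the higher one in the pairs numbered 1 and 2, and unlike *Slx1b* it was the lower one in pair 3. The part of *Bola2* reads in the *Slx1b* counts was not tested. The targeted gene *Armc5* lies on the same chromosome as *Slx1b*, from 128237342 to 128245100. Whether this location bears on the *Slx1b* counts was not tested.

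MUS81 cuts branched DNA together with EME1 or EME2. *Eme1* was at 13.6, 9.04 and 1.68 CPM in KO NPC 1, 2 and 3, against 15.4, 16.2 and 16.4 CPM in WT NPC 1, 2 and 3. All KO libraries were below all WT libraries, KO NPC 3 most. With *Fanci*, this made 2 of 36 members, beside 3.28% of all genes. For *Eme1* the log2 fold change was -0.98 (SE 0.67, adjusted p = 0.983 by edgeR's quasi-likelihood test). It was -0.50 without KO NPC 3, at an unadjusted p of 0.0603 in the same edgeR test. *Eme1* lies on GRCm38 chromosome 11 from 94644310 to 94653978. *Mus81* had 16.5 CPM in KO NPC 3, against 17.8 to 22.4 CPM elsewhere, so it did not share the low level of *Eme1*. The locus that names *Eme2* was at 262, 259 and 295 CPM in KO NPC 1, 2 and 3, against 257, 211 and 293 CPM in WT NPC 1, 2 and 3. Its libraries overlap, with a log2 fold change of 0.10 (SE 0.18, adjusted p = 0.983 in edgeR), and 0.0368 without KO NPC 3. That locus also names *Nubp2* and *Mapk8ip3*, and its counts cannot be separated between the 3 genes. *Slx4* was at 22.8 CPM and *Gen1* at 4.41 CPM in KO NPC 3, 0.53 and 0.22 times the median of the other 5 libraries.

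The BLM helicase, TOP3A and RMI1 form the dissolvasome, which separates joined chromatids without crossing over. *Blm* was at 61.2, 54.8 and 12.6 CPM in KO NPC 1, 2 and 3, against 51.9, 56.6 and 46.9 CPM in WT NPC 1, 2 and 3. KO NPC 3 is the one low library, and KO NPC 1 is the highest. The log2 fold change was -0.27 (SE 0.54, adjusted p = 0.983 in edgeR), and 0.16 without KO NPC 3. Its partners differed less in KO NPC 3, with *Top3a* at 12.5 CPM, against 18.9 to 22.1 CPM elsewhere, and *Rmi1* at 23.9 CPM, against 30.4 to 34.9 CPM elsewhere. The largest differences of the whole set were in helicase and resection genes. *Exo1*, a nuclease that trims broken ends, was at 32.5, 35.8 and 1.37 CPM in KO NPC 1, 2 and 3, against 28.5, 37.5 and 23.3 CPM in WT NPC 1, 2 and 3. *Brip1*, the Fanconi helicase bound by BRCA1, was at 32.9, 35.2 and 1.82 CPM in KO NPC 1, 2 and 3, against 28.5, 28.9 and 25.8 CPM in WT NPC 1, 2 and 3. Both had KO NPC 3 far below the rest, and KO NPC 1 and 2 of *Brip1* were above all 3 WT libraries. These 2 were chosen after their values were seen. *Rbbp8*, which encodes CtIP and starts resection, was at 41.9, 31.6 and 13.4 CPM in KO NPC 1, 2 and 3, against 33.9, 32.5 and 38.9 CPM in WT NPC 1, 2 and 3. Its log2 fold change was -0.28 (SE 0.40, adjusted p = 0.983 in edgeR), and 0.07 without KO NPC 3.

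The MRN complex senses broken ends. *Nbn* was at 44.6, 44.4 and 14.9 CPM in KO NPC 1, 2 and 3, against 37.1, 37.6 and 37.9 CPM in WT NPC 1, 2 and 3. KO NPC 1 and 2 were above the WT libraries, which lie within 1 CPM of each other, and KO NPC 3 was below them. For *Nbn* the log2 fold change was -0.12 (SE 0.41, adjusted p = 0.983 in edgeR), and 0.25 without KO NPC 3. *Mre11a*, the nuclease of the complex, had 17.9 CPM in KO NPC 3, against 31.2 to 37.9 CPM elsewhere. *Rad50*, its coiled-coil partner, had 14.3 CPM in KO NPC 3, against 27.96 to 33.3 CPM elsewhere. By role, the median difference of KO NPC 3 on the log2 scale ran from -3.97 for helicase and resection, -3.34 for ID2 and -3.02 for the BRCA group to -0.69 for the dissolvasome and -0.61 for the nucleases. The RAD54 pair was at -2.48, the filament assembly paralogs at -1.72, MRN at -1.17 and the Fanconi core at -0.84. The ranges of the roles overlap, from -4.53 to -1.34 for helicase and resection, from -3.18 to -0.09 for the Fanconi core and from -3.18 to 0.75 for the nucleases.

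**Figure D3:**
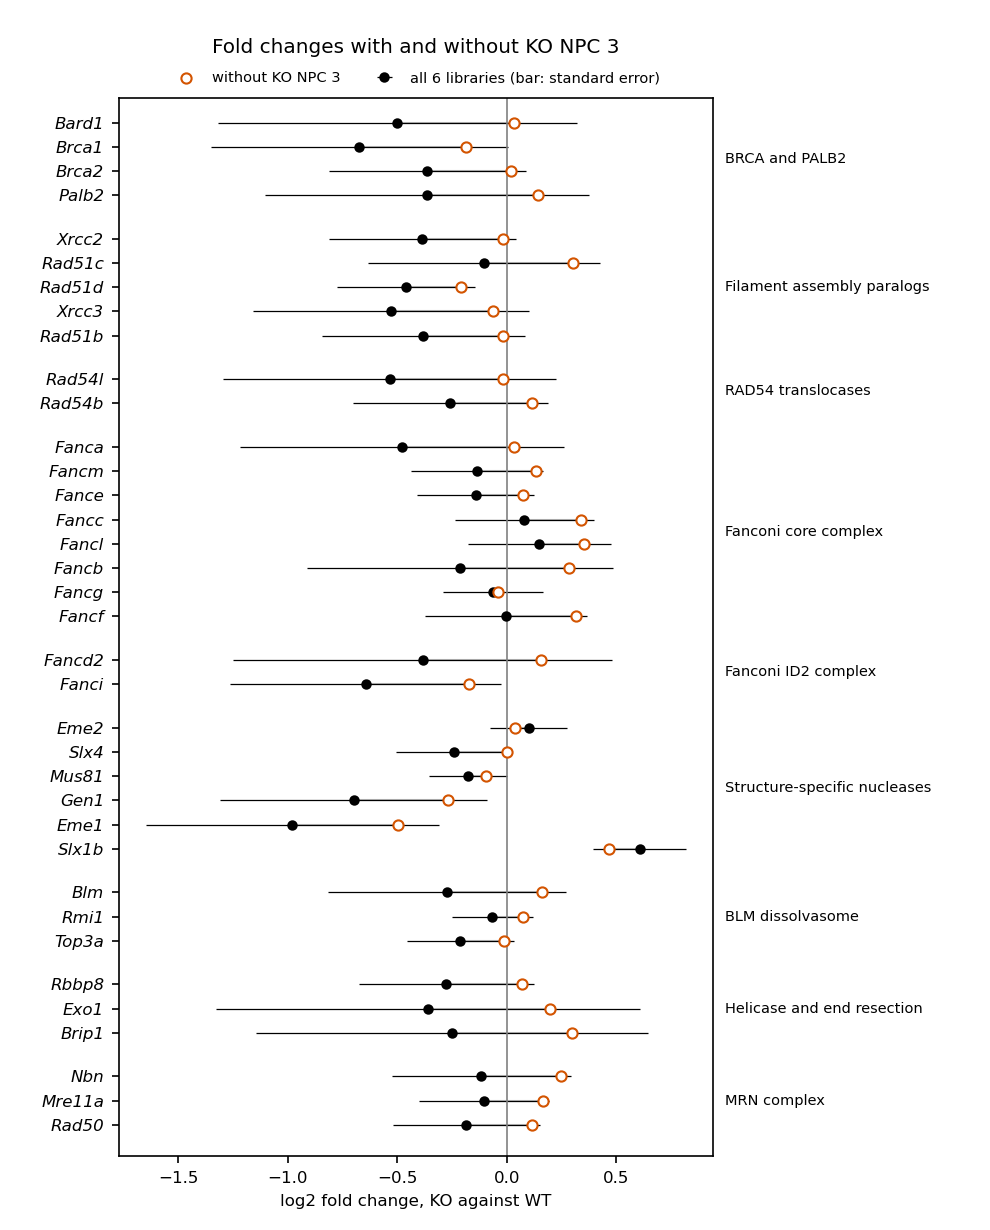
Log2 fold change of each member, KO against WT, over all 6 libraries (black, with its standard error) and without KO NPC 3 (open). Over all libraries 32 of 36 points lie below 0, and without KO NPC 3 they lie between -0.50 and 0.47.

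Genes outside the set give the scale of these values. In a list of 50 other recombination and crosslink repair genes, 49 were tested and 0 passed the adjusted threshold in edgeR's quasi-likelihood test, and 0 stood at an unadjusted p under 0.05. Of these 49, 40 had a log2 fold change below 0. Their median was -0.15, and 0.02 without KO NPC 3. KO NPC 3 was below 0.5 times the lowest other library for 18 of them (36.7%). Of 12 genes of end joining, the pathway that rejoins breaks without a template, 0 passed and 0 were that low in KO NPC 3. The median log2 fold change of the end joining genes was -0.11, and -0.0016 without KO NPC 3, and their median difference in KO NPC 3 was -0.36. All 28 S phase genes and all 24 genes of G2 and M phase were below 0.5 times the lowest other library in KO NPC 3, with median differences of -3.11 and -4.87 on the log2 scale. None of either list passed the test between genotypes, with 0 at an unadjusted p under 0.05 in each. Summed, the S phase genes were at 3119, 3040 and 368 CPM in KO NPC 1, 2 and 3, against 2509, 2710 and 2935 CPM in WT NPC 1, 2 and 3. *Pcna*, the clamp of the replication fork, whose locus also names *Tmem230*, was at 134, 120 and 44.3 CPM in the KO libraries and at 102, 120 and 114 CPM in the WT libraries. By their median, the members thus lie between the end joining genes and the S phase genes in KO NPC 3. Without KO NPC 3, 27 of the 28 S phase genes were above 0, with a median of 0.17, the median of the G2 and M phase genes was 0.11, and the members had 0.07.

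**Figure D4:**
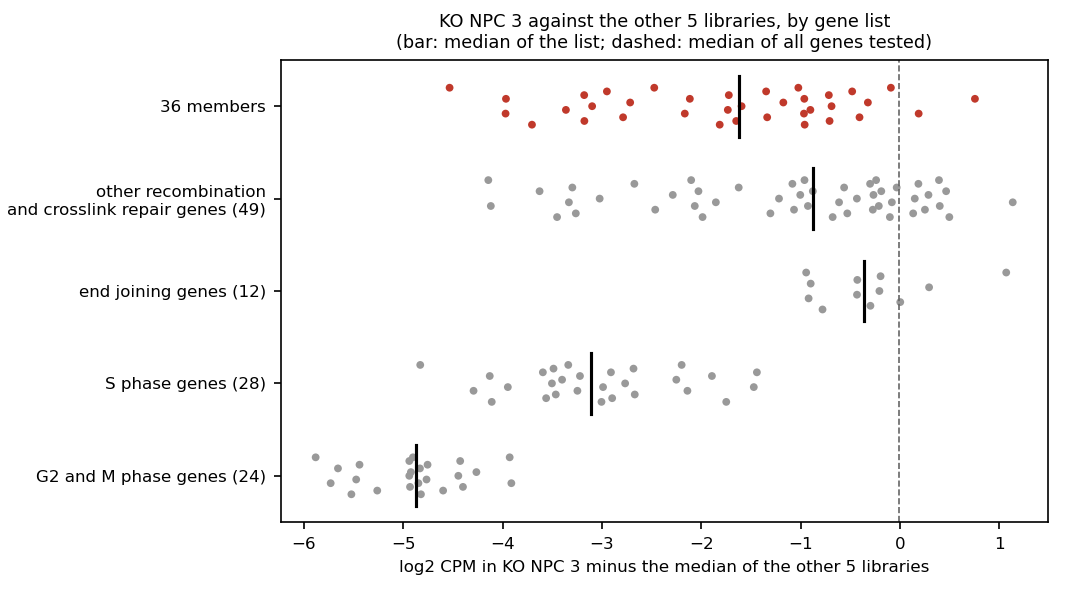
Log2 CPM in KO NPC 3 minus the median of the other 5 libraries, 1 point a gene, for the 36 members and for the 49, 12, 28 and 24 tested genes of 4 other lists. Medians run from -0.36 for end joining genes over -1.62 for the members to -4.87 for G2 and M phase genes.

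Some markers of cell types also stood out in that library. Of 20 neural progenitor genes, 10 were above 0 and 10 were below it between the genotypes, and 9 were above and 11 below without KO NPC 3. KO NPC 3 was the lowest library for 6 of the 20 and the highest for 7. *Sox2*, whose locus also names *Sox2ot* and other genes, was at 548, 600 and 812 CPM in the KO libraries, against 548, 626 and 536 CPM in the WT libraries. *Nes*, the progenitor filament gene, was at 394, 484 and 75.9 CPM in the KO libraries and at 426, 356 and 426 CPM in the WT libraries. Summed, the 10 astrocyte genes were at 1049 to 3400 CPM in the KO libraries, highest in KO NPC 3, and at 1126 to 1833 CPM in the WT libraries. KO NPC 3 was the highest library for 7 of these 10 genes, but not for *Aldh1l1*, *Slc1a2* and *Sparcl1*. Of these, *Aldh1l1* and *Slc1a2* differed there by -0.40 and -0.45 on the log2 scale from the median of the other 5 libraries. The 12 tested oligodendrocyte lineage genes summed to 2774 to 5349 CPM in the KO libraries, highest in KO NPC 3, and to 2705 to 3865 CPM in the WT libraries. KO NPC 3 was the highest library for 8 of these 12 genes and the lowest for 3, *Olig1*, *Olig2* and *Cspg4*, which differed there by -0.93, -0.76 and -1.25 on the log2 scale from the median of the other 5 libraries. *Mbp*, a myelin gene of that lineage, was at 8.42, 52.0 and 518 CPM in the KO libraries, against 11.1, 44.9 and 84.5 CPM in the WT libraries. The median log2 fold changes of the astrocyte and oligodendrocyte lists were 0.62 and 0.96, and -0.38 and -0.02 without KO NPC 3. Without both libraries numbered 3 they were -0.06 and 0.11. The 14 neuron genes summed to 924 to 1613 CPM in the KO libraries and 948 to 1569 CPM in the WT libraries. Their median log2 fold change was 0.17, or -0.34 once KO NPC 3 was left out, and 0.20 without both libraries numbered 3. Microglial RNA was near absent, with 1 of 11 genes tested, a summed level of that gene of at most 1.33 CPM and *Tyrobp* at 0 in all libraries. Of 7 tested endothelial and mural genes the median was 0.21, and of 6 fibroblast genes -0.38. Without KO NPC 3 these were -0.52 and -0.28, and without both libraries numbered 3 they were -0.07 and 0.08. In these lists no gene passed the adjusted threshold (0 in edgeR's quasi-likelihood test), and *Kdr*, an endothelial receptor gene, was the one gene with an unadjusted p under 0.05 (log2 fold change of 1.51, SE 0.57, and 0.63 without KO NPC 3). The part of these cell types in the levels of the members was not tested.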

How the data were processed

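RNA-seq was done on 3 KO and 3 WT NPC cultures. The authors depleted rRNA, made directional libraries, sequenced both ends and, per the labels, used Trimmomatic, STAR, Picard, StringTie and edgeR with GRCm38. The counting step and its use of strand were not given in the sources used here. The authors deposited whole-number counts per assembled locus, which were used with the locus lengths, and log2 CPM values, which were not used. Loci with the same reference gene identifier, or the same gene name where that was empty, were summed. Loci that name no gene (1.31% to 4.89% of a library) were left out. Genes were filtered (minimum count 10, minimum total 15), scaled by TMM and tested with edgeR 4.0.16 (quasi-likelihood) in R 4.3.3, genotype only, with Benjamini-Hochberg adjustment over all genes tested and a threshold of 0.05. CPM are on TMM-scaled sizes, and log2 CPM differences used a prior count of 2. Replicates are separate cultures as far as the labels go, so p-values cover the spread between these libraries.

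The study describes pairs of replicates. After removing each genotype's mean, libraries sharing a number had correlations of 0.413, 0.169 and 0.195 across genes. The other KO and WT pairs lay between -0.254 and 0.0579, but removing the means pushes these down when the first are above 0. The numbers were taken as pairs and a replicate block was fitted beside the main test. Members and lists were chosen with earlier results of these data known. Members given per library are those at an unadjusted p under 0.05, those whose genotypes do not overlap, *Slx1b*, and the highest by mean CPM of each role. Of the other lists, genes at an unadjusted p under 0.05 and *Mki67*, *Pcna*, *Sox2*, *Nes*, *Gfap*, *Mbp* and *Armc5* were to be named, with 1 more gene that is not reported here. Other names, *Bola2* and *Tyrobp* among them, were chosen after their values were seen. DESeq2 1.42.0, edgeR's likelihood ratio test, *Rn7sk* and total count scaling, no filter, the block, loci taken singly and each library left out were the alternatives. The code was tested on simulated counts.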

Additional observations from a re-analysis of the deposited data

How the results depend on the processing

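No alternative called a member: 0 of 36 passed an adjusted p under 0.05 under the *Rn7sk* scale, total counts, no filter, DESeq2, the likelihood ratio test of edgeR, the replicate block with either edgeR test, single loci, and with any library left out. Over all genes, where edgeR's quasi-likelihood test called 0 and 308 stood at an unadjusted p under 0.05, 4 were called on the *Rn7sk* scale, 5 without the filter, 17 by the likelihood ratio test, 8 by that test on the *Rn7sk* scale, 35 by DESeq2 and 38 by the replicate block with the likelihood ratio test. 3 settings were chosen after seeing the data: 68 genes passed by the likelihood ratio test and 90 by DESeq2 without KO NPC 3, and 66 by the likelihood ratio test without both libraries numbered 3. With each library left out in turn, the quasi-likelihood test called 0 genes.

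The median of the members, -0.25, was -0.47 with the replicate block, 0.09 without both libraries numbered 3, and between -0.59 and 0.07 with 1 library left out. On the *Rn7sk* scale 0 members had KO and WT libraries apart, and 2 with total counts only, against 3 on the TMM scale. Without both libraries numbered 3 the fold changes turned to 0.0611 for *Bard1*, 0.0418 for *Xrcc2*, 0.0519 for *Rad54l*, 0.17 for *Fanca*, 0.22 for *Fancd2*, 0.0895 for *Blm*, 0.14 for *Rbbp8* and 0.25 for *Nbn*. Leaving out 1 library gave -0.90 to 0.0315 for *Bard1*, -0.86 to 0.032 for *Fanca*, -0.75 to 0.16 for *Fancd2*, -0.62 to 0.16 for *Blm*, -0.64 to 0.0671 for *Rbbp8* and -0.34 to 0.25 for *Nbn*, in each case highest without KO NPC 3. The replicate block with the quasi-likelihood test gave -1.05 for *Bard1*, -0.88 for *Fanca*, -0.95 for *Fancd2* and -1.37 for *Eme1*. It gave -0.27 for *Nbn* and 0.60 for *Slx1b*. *Eme2* turned to -0.20 on the *Rn7sk* scale with either edgeR test. *Slx1b* (0.34 to 0.69), *Eme1* and *Fanci* kept their direction under every alternative, and the block changed no other call. The unadjusted p of *Slx1b* was not under 0.05 on the *Rn7sk* scale, without the filter or by edgeR's likelihood ratio test. Nor was it under 0.05 in the quasi-likelihood test with any WT library left out. Counts per locus cannot show single transcripts, and 20 of 36 members share exon bases with a gene on the opposite strand.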
